A study of Rattus norvegicus with 14 samples.

Results

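The genes described here make cholesterol, sense it and move it within the liver. They are a fixed list of 32 genes of cholesterol synthesis, uptake and trafficking, of which 30 were measured among 14506 genes by array probes annotated with exactly 1 gene symbol; Hmgcs1 and Pltp were not analysed here. For Insig1, which has 2 such probes, the brighter was used. The livers came from lean female rats of the Zucker strain, carrying 1 copy of the fa allele of the leptin receptor (fa/+) and about 15 weeks old by the series title. The control group was 7 rats on standard diet. The extract group was 7 rats on the same diet with a rosemary extract (RE) mixed in at 0.05% by weight for 64 days. Carnosic acid (CA), a phenolic diterpene, made up 40% of the extract, so its other constituents were given too. The sample labels state the 0.05% dose, and the series title states 0.5%. All 14 rats had the same genotype, sex and strain and were sampled on the same study day, and each gave 1 array of whole-liver RNA.

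Cholesterol is built from acetyl-CoA. The mevalonate pathway first makes isoprene units and joins them to squalene; squalene is then oxidised, closed into the sterol ring and trimmed to cholesterol. The transcription factor SREBP2, encoded by Srebf2, switches on these enzymes when sterols in the endoplasmic reticulum are low: SCAP escorts SREBP2 to the Golgi, where proteases release its active part, and the INSIG proteins hold SCAP back when sterols are plentiful. The liver is the main organ that makes cholesterol, takes it up from lipoproteins and disposes of it in bile.

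All values are log2 RMA values (RMA is the usual background correction, normalization and summary of Affymetrix probes), so a difference of 1 is a 2-fold change. A gene was called when limma's moderated test gave a Benjamini-Hochberg adjusted p of at most 0.05 over all 14506 genes. By that rule 290 genes (2.00%) rose and 167 (1.15%) fell. After each array was centred on its median gene the split was 415 against 144. The correlation of any 2 arrays over the genes was between 0.984 and 0.997. The arrays of control rat 1 and extract rat 4 had the lowest array weights of their groups (0.410 and 0.463, against 0.693 to 2.05 in the other 12 rats), and values that move by over 1.5 times without either are given without it as well, among the genes given with ranges and the block medians. All 8 hepatocyte markers examined, such as Alb and Hnf4a, were above the median probe, and 0 of them was called or had an unadjusted p under 0.05 in limma's test (0 were called in an unequal-variance test per gene).

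To show the DNA in front of the genes on which the results turn, the 250 bases upstream of the annotated gene start are printed 5′ to 3′ on the gene's strand, from RefSeq on the GRCr8 build. Mvd, which fell, lies on the minus strand (chr19:67414975-67415224). Fdps, a mevalonate enzyme with a smaller negative difference, also lies on the minus strand (chr2:176804817-176805066). Srebf2 (chr7:115543057-115543306), Dhcr7 (chr1:208444184-208444433) and Mbtps2 (chrX:41225735-41225984) lie on the plus strand. Dhcr7 is an enzyme with a positive difference that was not called, and Mbtps2 is a protease gene of the SREBP pathway that rose. Capitals mark CCAAT, the core bound by NF-Y, on either strand (ATTGG on the printed one), and in Srebf2 also ATCACCCCA, a core of the sterol regulatory element to which SREBP2 binds.
Mvd: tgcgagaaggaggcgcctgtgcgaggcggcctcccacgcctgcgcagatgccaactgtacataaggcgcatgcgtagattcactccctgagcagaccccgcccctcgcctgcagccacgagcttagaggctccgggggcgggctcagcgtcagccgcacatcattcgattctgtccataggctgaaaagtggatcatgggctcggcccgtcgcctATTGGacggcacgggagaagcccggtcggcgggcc
Fdps: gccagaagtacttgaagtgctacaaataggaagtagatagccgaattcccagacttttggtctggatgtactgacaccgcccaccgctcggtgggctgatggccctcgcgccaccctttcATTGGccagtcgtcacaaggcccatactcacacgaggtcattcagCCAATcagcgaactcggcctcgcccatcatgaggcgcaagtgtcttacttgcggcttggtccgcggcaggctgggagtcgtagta
Srebf2: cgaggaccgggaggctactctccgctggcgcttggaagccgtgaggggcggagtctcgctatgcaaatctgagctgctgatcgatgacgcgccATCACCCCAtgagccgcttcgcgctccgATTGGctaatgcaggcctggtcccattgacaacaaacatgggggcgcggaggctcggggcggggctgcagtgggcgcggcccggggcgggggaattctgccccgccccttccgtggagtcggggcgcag
Dhcr7: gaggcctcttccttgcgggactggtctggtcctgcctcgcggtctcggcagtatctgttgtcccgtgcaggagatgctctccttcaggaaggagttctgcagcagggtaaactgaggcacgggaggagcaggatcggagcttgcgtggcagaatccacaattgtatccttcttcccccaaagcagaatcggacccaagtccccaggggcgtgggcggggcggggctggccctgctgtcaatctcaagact
Mbtps2: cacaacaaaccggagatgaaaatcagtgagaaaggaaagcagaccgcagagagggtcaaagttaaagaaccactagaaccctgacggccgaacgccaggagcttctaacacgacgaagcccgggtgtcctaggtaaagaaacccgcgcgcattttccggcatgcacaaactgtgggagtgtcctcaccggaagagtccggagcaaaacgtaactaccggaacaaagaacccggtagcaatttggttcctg

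Of the 30 measured genes, 24 had such a RefSeq entry; Pmvk, Fdft1, Sqle, Stard4, Soat2 and Scarb1 did not match. Windows of 300 bases (250 before and 50 after the start) were searched on both strands. CCAAT was found in 19 of the 24 (79.2%) and in 38.3% of the windows of the 11968 measured genes with an entry. The enzyme genes held it in 12 of 15 windows, with 5 matches each in Mvk and Nsdhl, 3 each in Msmo1 and Hsd17b7, and 2 in Mvd, of which the printed part shows 1. Dhcr7, Cyp51 and Acat2 were the enzyme genes without it. GGGCGG, the core bound by Sp1, was likewise found in 19 of the 24 and in 50.2% of all windows. The sterol element was searched as TCACNCCAC, found in 0 of the 24 windows and 1.09% of all, and as the partly overlapping ATCACCCCA, added after the Srebf2 sequence had been read and found in Srebf2 alone of the 24 and in 0.125% of all. These matches are a description of the letters in these windows.

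Of the 30 genes, 2 fell with the extract and 0 rose, where 1.15% of all genes fell and 2.00% rose (3.15% in either direction). The 2 were Mvd and Pmvk, which catalyse consecutive steps of the mevalonate pathway. The median log2 fold (extract minus control) was -0.12 over the 30 genes and 0.00 (-0.00088) over all genes, and 24 of the 30 had a negative fold against 50.3% of all genes. Without extract rat 4 the median of the 30 was -0.07. At an unadjusted p under 0.05 in limma's test, 6 genes were lower and 1, Dhcr7, was higher (7.40% and 7.45% of all genes). In the unequal-variance test per gene 0 of the 30 passed in either direction, where 227 of all 14506 genes did. In 0 of the 30 did the 7 extract rats and the 7 control rats separate without overlap, as they did in 1.54% of all genes. The liver was measured as a whole, so fewer cells of a type and less RNA per cell cannot be told apart.

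**Figure D1:**
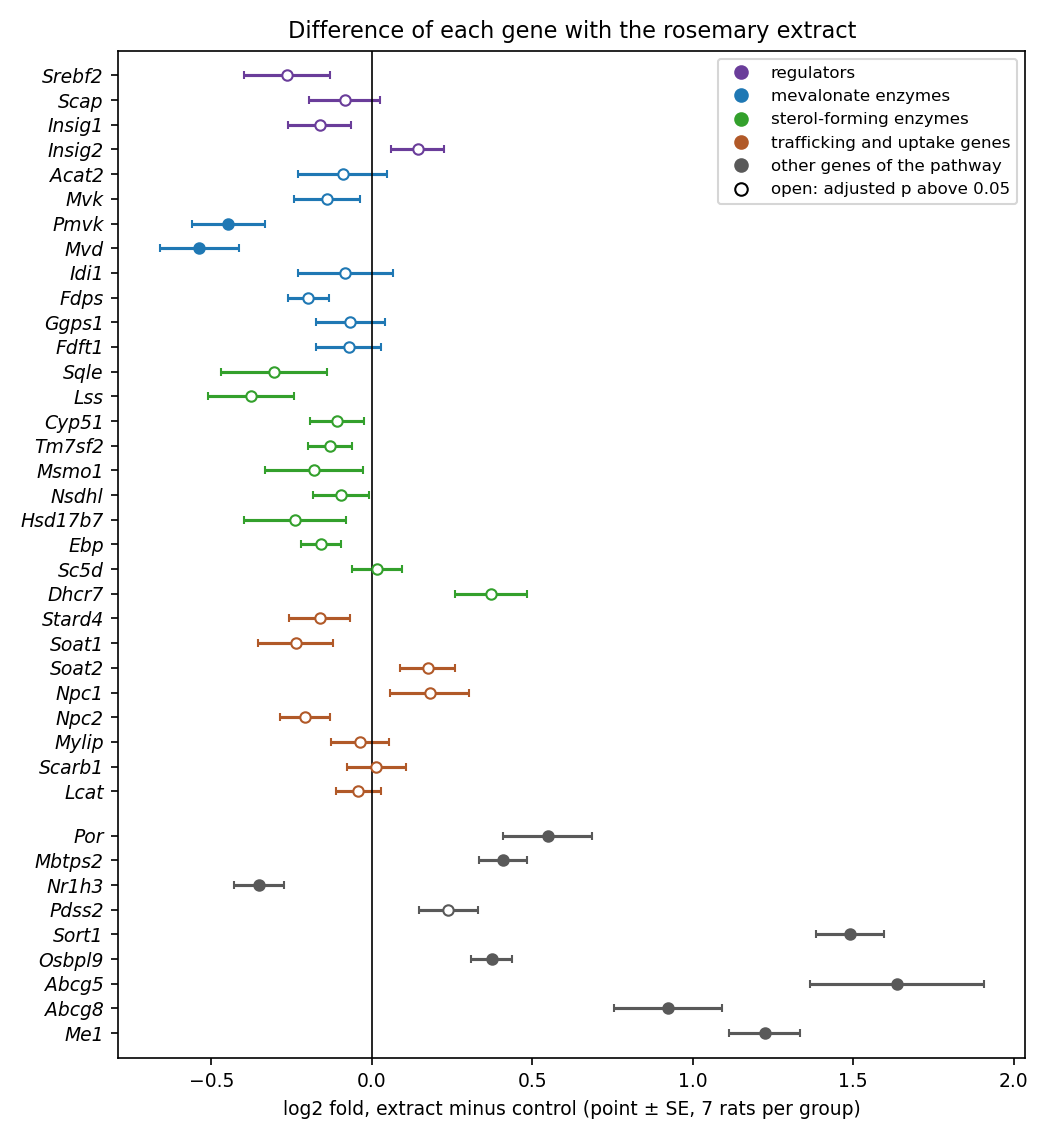
Log2 fold with limma's standard error for the 30 genes, ordered by role and pathway step, and for 9 other genes of the pathway in grey; filled points have an adjusted p of at most 0.05. The points of Mvd and Pmvk are the only filled ones among the 30, and Dhcr7 lies to the right of 0 while 16 of 18 enzymes lie to the left.

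None of the 4 regulators was called by limma, and none had an unadjusted p under 0.05 (0 of 4 passed in the unequal-variance test). Srebf2 lay between 8.81 and 9.68 in control rats, with a median of 9.33, and between 8.61 and 9.45 in extract rats, with a median of 9.09. The groups overlapped widely, although 6 of 7 extract rats lay below the control median. Its log2 fold was -0.26 ± 0.13 (SE, adjusted p = 0.38). Insig1, itself an SREBP2 target whose protein retains SCAP, had a range of 11.87 to 12.48 (median 12.04) in controls and 11.62 to 12.11 (median 11.96) with the extract. Its fold was -0.16 ± 0.10 (SE, adjusted p = 0.49), and -0.09 without control rat 1, while that of its other probe was -0.25. Insig2, the second retention protein, went the other way, from 11.02 to 11.56 (median 11.43) in controls and from 11.37 to 11.68 (median 11.48) in extract rats. Its fold was 0.14 ± 0.08 (SE, adjusted p = 0.46), and 0.09 without control rat 5. Scap, the escort protein, differed least of the 4, with a fold of -0.08 ± 0.11 (SE, adjusted p = 0.81).

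In the mevalonate block, 2 of 8 measured enzymes fell and 6 did not pass, and all 8 had a negative log2 fold. Mvd decarboxylates mevalonate diphosphate to the first isoprene unit. It ranged from 8.16 to 8.99 (median 8.49) in controls and from 7.76 to 8.23 (median 8.06) in extract rats. Of the 7 extract rats, 6 lay below every control, and extract rat 3 was the exception. Mvd fell by 0.54 ± 0.12 on the log2 scale (SE; 8.55 ± 0.32 to 8.01 ± 0.17, SD, n = 7 each; limma adjusted p = 0.022), which is 1.45-fold. Its call was held without each rat in turn, the adjusted p ranging from 0.00587 to 0.0497, but the unequal-variance test did not call it (0.11).

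Pmvk, which adds the second phosphate just before Mvd acts, ranged from 8.17 to 8.86 (median 8.44) in controls and from 7.78 to 8.34 (median 8.01) with the extract. Again 6 of 7 extract rats lay below every control, here with extract rat 2 as the exception. Pmvk fell by 0.45 ± 0.11 on the log2 scale (SE; 8.48 ± 0.27 to 8.04 ± 0.18, SD, n = 7 each; limma adjusted p = 0.037), which is 1.36-fold. This call is near the threshold. Leaving out any of control rats 2, 3 and 5 or of extract rats 1, 3, 5, 6 and 7 ended it (limma adjusted p from 0.052 to 0.082), as did leaving out control rat 1 together with extract rat 4 (0.060). So did median centring (0.071), a further quantile normalization (0.055) and the unequal-variance test (0.12).

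The other 6 enzymes of the block differed less. Fdps, which condenses isoprene units to farnesyl diphosphate, had the tightest values of the block, from 12.75 to 13.00 (median 12.90) in controls and from 12.54 to 12.83 (median 12.73) in extract rats. All 7 extract rats lay below the control median and 5 below every control. Its fold of -0.20 ± 0.06 (SE) did not pass (limma adjusted p = 0.12). Mvk, the kinase before Pmvk, had a fold of -0.14 ± 0.10, and Acat2, which forms acetoacetyl-CoA at the head of the pathway, of -0.09 ± 0.14 (SE). Idi1, the isomerase directly after Mvd, had a fold of -0.08 ± 0.15 and a wide spread in both groups (SD 0.33 and 0.31). Ggps1, which branches off to geranylgeranyl diphosphate, and Fdft1, which makes squalene, had folds of -0.07 ± 0.11 and -0.07 ± 0.10 (SE). The median of the block was -0.12. It was -0.04 without extract rat 4, -0.18 without extract rat 3, and -0.07 with array weights or without control rat 1 and extract rat 4 together.

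**Figure D2:**
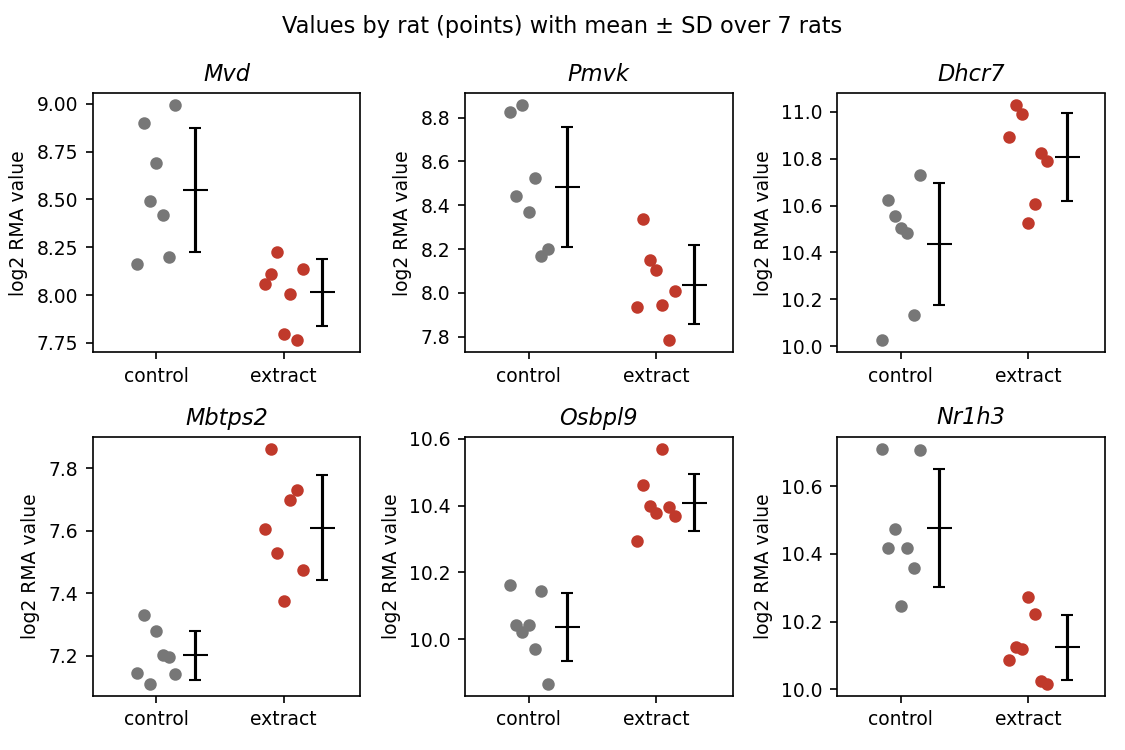
Log2 RMA value of each rat (points) with the mean ± SD of 7 rats per group for the called enzymes Mvd and Pmvk, for Dhcr7 and for 3 called genes outside the 30; each vertical axis has its own range and does not start at 0. The extract points lie low in Mvd, Pmvk and Nr1h3 and high in Dhcr7, Mbtps2 and Osbpl9, and the groups have no overlap in Mbtps2 and Osbpl9.

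From squalene to cholesterol, 0 of 10 enzymes was called by limma, with 2 lower and 1 higher at an unadjusted p under 0.05 (0 of 10 passed in the unequal-variance test). The median was -0.14 and 8 of the 10 folds were negative. Lss, the cyclase that closes the ring of lanosterol, ranged from 7.67 to 8.61 (median 8.20) in controls and from 7.35 to 8.08 (median 7.93) with the extract. All 7 extract rats lay below the control median, 3 of them below every control. Its fold was -0.38 ± 0.13 (SE, limma adjusted p = 0.17; 0.043 without control rat 1). Sqle, the squalene epoxidase that controls entry to this block, had a fold of -0.30 ± 0.17 (SE, adjusted p = 0.42), with a wide spread in both groups (SD 0.31 and 0.40).

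Ebp, the sterol isomerase, ranged from 11.68 to 11.93 (median 11.71) in controls and from 11.51 to 11.76 (median 11.60) in extract rats. Here 6 of 7 extract rats lay below every control, but the shift was small, at -0.16 ± 0.06 (SE, limma adjusted p = 0.22). The demethylating enzymes Cyp51, Msmo1, Nsdhl and Hsd17b7 had folds of -0.11, -0.18, -0.10 and -0.24, and the reductase Tm7sf2 of -0.13, with adjusted p from 0.41 to 0.69. In Cyp51 and Msmo1 the extract rats were more scattered than the controls (SD 0.21 against 0.06 and 0.42 against 0.19). Sc5d, which sets the last ring double bond before Dhcr7 acts, had a fold of 0.02 ± 0.08 (SE).

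Dhcr7, a reductase at the end of the pathway, stood on the other side. It ranged from 10.02 to 10.73 (median 10.50) in controls and from 10.53 to 11.03 (median 10.83) in extract rats. All 7 extract rats lay above the control median and 5 above every control. Its log2 fold was 0.37 ± 0.11 (SE; 10.44 ± 0.26 to 10.81 ± 0.19, SD, n = 7 each) and did not pass (limma adjusted p = 0.083). It passed without extract rat 4 (0.049), after median centring (0.029) and with array weights (0.023), while the range over all fits was 0.023 to 0.19.

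Mvd, Pmvk and Dhcr7 had been singled out with these results known, so their contrast is given as values without a test. Within each rat, the deviation of Dhcr7 from its control mean minus the mean deviation of Mvd and Pmvk was taken. It lay between -0.39 and 0.22 (median 0.04) in controls and between 0.66 and 1.13 (median 0.88) in extract rats. Control rat 1 was lowest and extract rat 6 highest, and the groups did not overlap. The mean difference was 0.86, and 0.80 to 0.90 when each rat was left out in turn.

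A per-rat SREBP2 score was formed as the mean deviation from the control mean over 21 measured SREBP2 targets among the 30 genes, with Srebf2 itself included. It is described without a test for the same reason. Its genes did not all follow it: over the 14 rats, as deviations from the group means, Insig1 and Tm7sf2 correlated with the score at r = -0.25 and -0.24 and Pmvk at 0.18, while Sqle correlated at 0.94, each gene being part of the score. Control rats scored from -0.12 to 0.12 (median 0.04) and extract rats from -0.46 to 0.05 (median -0.20). Extract rats 1, 4, 5 and 6 scored below every control, at -0.22, -0.46, -0.20 and -0.27, while extract rats 2, 3 and 7 (-0.04, 0.05 and -0.00192) lay within the control range. The mean score of the extract group was -0.16 ± 0.18 (SD, n = 7), with a larger spread than in controls (SD 0.09, n = 7). The difference was -0.11 without extract rat 4 and -0.13 with Mvd and Pmvk left out of the score.

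**Figure D3:**
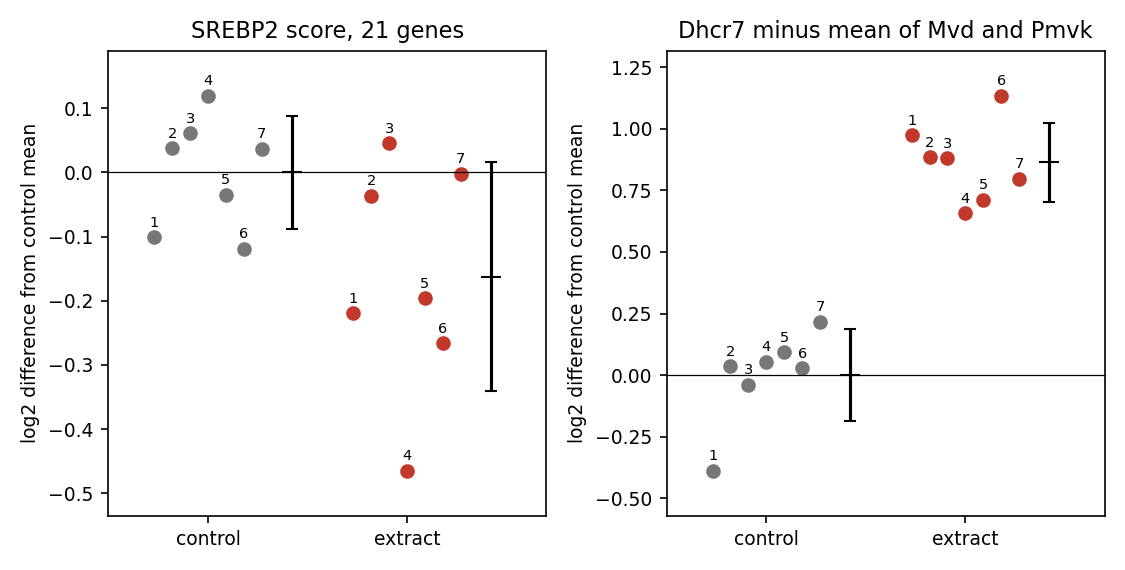
Left, the SREBP2 score of each numbered rat (mean log2 difference from the control mean over 21 genes). Right, Dhcr7 minus the mean of Mvd and Pmvk in the same unit. Each panel has its own vertical range, and bars are mean ± SD of 7 rats. On the left 3 extract rats lie among the controls and extract rat 4 lies lowest at -0.46, while on the right all 7 extract rats lie above all controls.

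Extract rat 4 lay at the low end of the extract group. This rat had the lowest value of all 14 rats in 14 of the 30 genes and in 10 of the 18 enzymes. Among extract rats it was lowest in 12 of the 18 enzymes. It stood 0.96 below the control mean in Sqle and Msmo1 and 0.97 below in Hsd17b7, yet in Dhcr7 it was 0.09 above that mean. At the other end, extract rat 3 had the highest extract value in 8 of the 18 enzymes and extract rat 7 in 6. In Mvd and Pmvk, however, extract rats 3 and 7 were also below the control mean, by 0.32 and 0.41 in Mvd and 0.33 and 0.48 in Pmvk. The array of extract rat 4 was also the one of lowest weight in its group. Its median gene (6.00) was the lowest of the 14 arrays, with control rat 1 next (6.02). How often this rat was lowest over all genes was not counted, and the part of its array in these values was not tested.

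**Figure D4:**
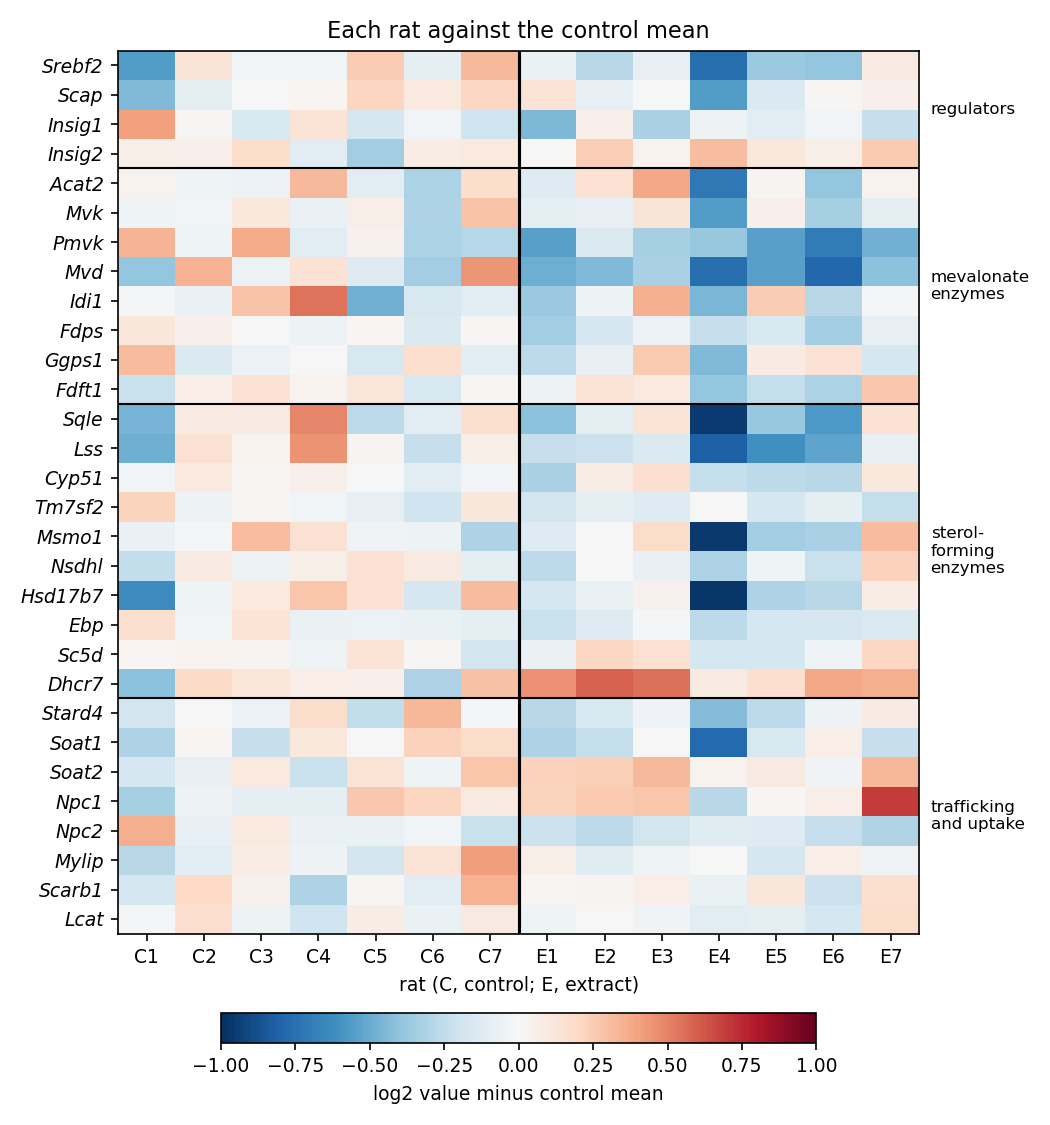
Log2 value of each rat minus the mean of the 7 controls (colour, blue lower and red higher) for the 30 genes in rows and the 14 rats in columns (C, control; E, extract). Column E4 is the bluest, Mvd and Pmvk are blue in all 7 extract columns, and Dhcr7 is red in all 7.

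The score's pattern across rats, taken as deviations from the group means over 14 rats, was most like that of Serpina3l among the 14476 genes outside the list (Pearson r = 0.84, Spearman rho = 0.87, r = 0.75 without extract rats 3 and 4). Next came Slc40a1 (r = 0.84), Xrcc6 (0.83), Cyb5b (0.82) and Asph (0.82), for which r without these 2 rats was 0.59, 0.76, 0.76 and 0.70. These are the highest of many correlations that share arrays, and no test is attached. Serpina3l, a serine protease inhibitor gene, rose with the extract (log2 fold 0.29, limma adjusted p = 0.019), although the score was lower there. Cyb5b, an outer-mitochondrial cytochrome b5, had a log2 fold of -0.20 (limma adjusted p = 0.23).

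Among genes that esterify, move, take up or remodel cholesterol, 0 of 8 was called by limma, with 1 lower and 0 higher at an unadjusted p under 0.05 (0 of 8 passed in the unequal-variance test). The median log2 fold was -0.04, with 5 negative and 3 positive, and it ranged from -0.06 without control rat 1 to 0.00 (0.00391) without control rat 7. The esterifying enzymes differed in sign. Soat2, the acyltransferase of hepatocytes, ranged from 9.06 to 9.56 (median 9.24) in controls and from 9.25 to 9.62 (median 9.51) with the extract. All 7 extract rats lay above the control median but only 2 above every control, with a fold of 0.17 ± 0.09 (SE, adjusted p = 0.36). Soat1, the widely expressed acyltransferase, ranged from 5.80 to 6.34 (median 6.13) in controls and from 5.33 to 6.18 (median 5.88) in extract rats, of which 2 lay below every control. Its fold was -0.24 ± 0.12 (SE, adjusted p = 0.36), and -0.15 without extract rat 4.

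The 2 proteins that pass cholesterol out of the lysosome also differed in sign. Npc2, the soluble carrier, ranged from 10.12 to 10.71 (median 10.28) in controls and from 10.04 to 10.22 (median 10.13) in extract rats. All 7 extract rats lay below the control median and 3 below every control, with control rat 1 the highest of all. Its fold was -0.21 ± 0.08 (SE, limma adjusted p = 0.20), and -0.15 without control rat 1. Npc1, the membrane partner, had a fold of 0.18 ± 0.12 (SE, adjusted p = 0.56), with extract rat 7 highest at 11.14.

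The remaining 4 differed by at most 0.16. Stard4, a carrier of sterol between membranes, had a fold of -0.16 ± 0.10 (SE). Scarb1, the HDL receptor SR-BI, had one of 0.01 ± 0.09, and Lcat, the plasma enzyme that esterifies HDL cholesterol, of -0.04 ± 0.07 (SE). Mylip, the ubiquitin ligase that targets lipoprotein receptors for degradation, had -0.04 ± 0.09 (SE), with both means (4.81 and 4.78) below 5.10, the median probe in controls, where RMA compresses differences.

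Of 64 measured genes on 7 other lists of the wider pathway, 7 rose and 1 fell. Shares over all genes were 2.00% and 1.15%. These lists were drawn up with some of the results known. In the machinery that senses sterols, activates SREBP and degrades the pathway's proteins, 1 of 11 rose, 1 fell and 9 did not pass. Mbtps2, the site-2 protease that cuts SREBP within the membrane, ranged from 7.11 to 7.33 (median 7.20) in controls and from 7.37 to 7.86 (median 7.61) with the extract. The groups did not overlap, and extract rat 4 was the lowest extract rat. Mbtps2 rose 1.33-fold (log2 fold 0.41 ± 0.07 SE; 7.20 ± 0.08 to 7.61 ± 0.17, SD, n = 7 each; limma adjusted p = 0.00389). Its partner Mbtps1, the site-1 protease, had a log2 fold of -0.000482 and is named here after its value was seen.

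Nr1h3 encodes LXRα, the oxysterol receptor that induces sterol export. It ranged from 10.25 to 10.71 (median 10.42) in controls and from 10.02 to 10.27 (median 10.12) in extract rats. All 7 extract rats lay below the control median and 6 below every control. It fell by 0.35 ± 0.08 on the log2 scale (SE, limma adjusted p = 0.016), and it was not called in the unequal-variance test (0.058) or with the rat number as a block (0.067). Macrophages also express Nr1h3, Npc2 and Soat1, and macrophage markers were lower in the same rats. All 12 measured markers of Kupffer cells and macrophages had a negative fold (median -0.28). Of these, 2 fell, Marco and Vsig4, where 1.15% of all genes fell. The unequal-variance test called 1 of the 12. The mean log2 level of the 12 lay between 8.79 and 9.09 in controls and between 8.42 and 8.74 in extract rats, without overlap. Their summed linear signal was 6717 to 8670 in controls and 5153 to 6678 in extract rats. The 5 endothelial markers (median -0.21, 0 called by limma or the unequal-variance test, 2 at an unadjusted p under 0.05) had negative folds as well. So did 6 of the 7 stellate cell markers (median -0.24, 1 called by limma and 0 by the unequal-variance test). The part of these cells in the lower values of Nr1h3, Npc2 and Soat1 was not tested.

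Among carriers of sterol inside the cell, 1 of 15 rose and 14 did not pass. Osbpl9, an oxysterol-binding-protein relative at membrane contacts, ranged from 9.87 to 10.16 (median 10.04) in controls and from 10.29 to 10.57 (median 10.40) with the extract. The groups did not overlap, and Osbpl9 rose 1.30-fold (log2 fold 0.37 ± 0.06 SE, limma adjusted p = 0.00199). Of the 4 measured genes for remaining steps and electron partners, Por rose and 3 did not pass. Por encodes the reductase that feeds electrons to Cyp51, Sqle and the drug-metabolising P450s. It ranged from 8.62 to 9.16 (median 8.99) in controls and from 8.85 to 9.85 (median 9.66) in extract rats, with extract rat 4 the only one not above every control. Por rose 1.46-fold (log2 fold 0.55 ± 0.14 SE, limma adjusted p = 0.037). Leaving out any of control rats 3, 4 and 6 or of extract rats 1, 2, 3, 5 and 7 ended its call (0.055 to 0.090), and the unequal-variance test did not make it (0.15).

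The branches that lead from mevalonate to ubiquinone, dolichol and prenylated proteins had 0 of 10 genes called by limma (1 lower and 2 higher at an unadjusted p under 0.05, and 0 called in the unequal-variance test). The smallest p was that of Pdss2, a subunit of the enzyme that builds the ubiquinone tail (log2 fold 0.24 ± 0.09 SE, adjusted p = 0.21). In lipoprotein uptake 1 of 5 rose, Sort1, the sorting receptor sortilin, from at most 7.65 in any control to at least 8.73 in any extract rat (2.81-fold, limma adjusted p = 1.06e-07). In sterol export 2 of 7 rose, the partners Abcg5 and Abcg8, with log2 folds of 1.64 and 0.92. Abcg5 was widely spread in controls, from 5.95 to 8.02, against 8.20 to 8.83 in extract rats. It was not called in the unequal-variance test (0.066). The groups overlapped in Abcg8, which ranged from 5.01 to 6.11 in controls and from 5.95 to 6.80 in extract rats. Of 12 SREBP1 targets of fatty acid synthesis, Me1 rose (2.34-fold), 11 did not pass and 8 folds were negative, with a median of -0.16. Me1 is an NRF2 target as well, and its groups did not overlap.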

How the data were processed

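Liver RNA was labelled with a whole-transcript Affymetrix protocol, per the labels' protocols, and 14 arrays were read, 1 for each rat. The authors deposited log2 values for 29215 probes, made with RMA and Affymetrix Expression Console 1.1.2, per the submitters' processing notes. The options and a genome build are not given in the sources used here. The log2 scale was read from the values, which run from 1.95 to 14.0. The labels name no batch.

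GEO's platform annotation gave 15310 probes exactly 1 gene symbol and 323 several, and left 13582 unnamed here. Of the former, 15279 matched the GRCr8 gene table by Entrez identifier, and 0 symbols changed. Where a gene had several probes, the brightest on average was used. The groups were compared by limma 3.58.1 under R 4.3.3 with a two-sided moderated test, no covariate and no filter on dim genes. Folds carry limma's standard error (median 0.087 over all genes); precision is limited by how many arrays there are. The members and lists were chosen with earlier results of these data known. All listed genes are reported. Ranges are given for those called, for Mvd, Pmvk and Dhcr7, and for the 3 with the smallest p of each role; genes of other lists are named when called or when first by p. Tested on simulated data for this comparison (14506 genes), the fit recovered 89.4% of genes changed by 0.5 and 99.8% of those changed by 1 on the log2 scale. The simulated noise was normal and independent, with the same SD in both groups of a gene and no array-wide effects. These shares are averages over genes drawn from the whole table. They do not give the recovery for genes with larger standard errors, such as Sqle (0.17).

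The counts of calls, the block medians and the folds of genes given with ranges were recomputed with a further quantile normalization, with arrays centred on their medians, with genes kept at a mean of 6 or more or above the median gene, and with all probes of a gene averaged. Other fits used a variance trend with robust estimation, weights for arrays, a test with unequal variances, the rat number as a block, a threshold of 0.1, or 1 rat fewer. The per-rat score was recomputed as z-scores, with centred arrays, without Mvd and Pmvk and with 1 rat fewer, and the Dhcr7 contrast with the quantile normalization and with 1 rat fewer. Marker lists, the counts of other lists and the correlations with the score were not recomputed, apart from the unequal-variance counts and the correlations without 2 rats printed beside them. A fit without control rat 1 and extract rat 4 was added after the data had been seen. Python 3.11.15 with pandas 2.3.3 and matplotlib 3.10.9 made the tables and figures.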

Additional observations from a re-analysis of the deposited data

Results flagged for a closer look

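In 78 groups of 7 values (39 genes in 2 groups), 3 held a rat that stood apart from its group by Dixon's criterion for a gap that is large against the group's range, and chance gives about 1 in 20. Extract rat 4 was lowest in Scap at 8.15, with the next extract rat at 8.56. It was also lowest in Hsd17b7, at 8.36 against 9.02 in the next. Extract rat 2 was highest in Sort1 at 9.60, with the next at 9.09.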

How the results depend on the processing

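Of the 12 cholesterol genes given with ranges, 0 changed the sign of their fold in 298 gene-by-setting comparisons, and in 280 of these they kept their side of the threshold. Many of these comparisons could not change a sign. The filters on dim genes, the variance trend, the unequal-variance test, the rat block and the threshold of 0.1 leave each fold as it was. Averaging probes does so too for a gene with 1 probe. The count of genes that fell among the 30 was 2, and 1 after repeated quantile normalization, after median centring and without both arrays of lowest weight (control rat 1 and extract rat 4), and 0 in the unequal-variance test; with 1 rat left out it ranged from 1 to 3, the third being Lss without control rat 1. The count of genes that rose was 0, and 1 (Dhcr7) after median centring, with array weights and at an adjusted p of 0.1; with 1 rat left out it ranged from 0 to 1. Over the whole table, 290 genes rose. The count was 171 in the unequal-variance test, 432 with array weights and 428 at an adjusted p of 0.1. With 1 rat left out it was 209 to 329. Of those that fell there were 167, 262 with array weights, 56 in the unequal-variance test, 291 at an adjusted p of 0.1, and 116 to 292 with 1 rat left out, 292 being without control rat 1. The number of enzymes with a negative fold was 14 to 17 under all fits, of 18 enzymes except where the filter at the median gene left fewer. With each gene divided by its own within-group SD before averaging, the score's difference was -0.78, which is another unit than the log2 value of -0.16. The cause of these shifts was not tested. The rat numbers are shared between the groups, but the labels do not say that they pair the rats. Deviations of same-numbered rats correlated between -0.46 and 0.28, and 2 of 7 rats correlated best with their own number. With the rat number as a replicate block, 235 genes rose and 129 fell, the counts among the 30 stayed at 0 and 2, and Mvd had an adjusted p of 0.019. Probes near background, such as that of Mylip, limit the smallest differences that can be seen.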
